A study of Mus musculus with 12 samples.

Results

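This comparison set the cortex of all 6 mice carrying an exon 5 mutation of Grin1 against that of all 6 wild types, and took in every one of the 12 libraries of the series. The mutants were 3 knock-in animals (KI, genotype Grin1-exon5+/+, exon 5 constitutive) and 3 knockout animals (KO, genotype Grin1-exon5-/-). The controls were 3 wild types of the knock-in line (KI_WT) and 3 wild types of the knockout line (KO_WT). All were adult, on a C57Bl/6 background, and poly(A) RNA was read from cortical brain. The animals' sex and the number of founders behind each line were not given. Members were chosen by the mutation label alone, and the question was which transcripts differ from wild type in the same way whether exon 5 is always included or always absent. Of 41388 genes in the count table, 17441 passed the filter on low counts.

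Grin1 encodes GluN1, the obligatory subunit of NMDA receptors, the glutamate-gated calcium channels that serve as coincidence detectors in synaptic plasticity. Exon 5 is an alternatively spliced cassette in the part of the transcript for the extracellular amino-terminal domain. Its inclusion is known to reduce the sensitivity of the receptor to protons and to speed its deactivation, and forebrain neurons normally make a mixture of both forms. The knock-in and the knockout therefore fix the splice choice in opposite states, and what they share is the loss of that choice.

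The cassette lies at chr2:25311343-25311405 (GRCm38, minus strand) and is a coding exon in 4 of 8 annotated coding transcripts, while the other 4 join the flanking exons directly. Both forms are shown with 30 bases of each neighbouring exon, since this is the difference the mice were made to carry. The sequences come from the GENCODE M21 transcripts, and capitals mark the 63 bases of the cassette.
Exon 5 included: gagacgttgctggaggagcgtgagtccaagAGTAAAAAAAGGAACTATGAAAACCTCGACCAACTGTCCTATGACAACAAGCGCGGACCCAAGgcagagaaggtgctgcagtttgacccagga
Exon 5 skipped: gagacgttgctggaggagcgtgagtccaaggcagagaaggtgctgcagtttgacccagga
The counts are per gene and do not separate these forms, so they cannot check the genotype labels.

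No gene passed an adjusted p of 0.05 between mutants and wild types (0 of 17441, 0% of genes tested). The test was edgeR's quasi-likelihood test with the line as a factor and Benjamini-Hochberg adjustment. The smallest adjusted p was 0.535, shared by 575 genes. An unadjusted p under 0.05 was reached by 1588 genes, of which 804 were higher in mutants (4.61% of genes tested) and 784 lower (4.5%). DESeq2 with the same design called 7 genes and limma voom called 0. On the deposited RPKM scale (log2 of RPKM + 0.1) limma called 0 genes, with 1584 higher and 275 lower at an unadjusted p under 0.05. The median of all genes on that scale stood at 0.046, against -0.0038 in the edgeR fit. The 6 mutant libraries all lay above the 6 wild types for 40 genes (0.229%) and all below them for 29 genes (0.166%). That split depended on the scaling, with 127 above and 8 below on CPM by library total. All 24 genes described next had an edgeR adjusted p of 0.535, and their differences are given as values that did not pass the test.

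The libraries differed in ways the genotype does not name, and several of these moved with mutant status. They held 31790970 to 36514024 counts and 21927 to 22809 detected genes. Xist, which silences 1 of the X chromosomes in female cells, had 570 to 856 CPM (counts scaled to library size, with TMM factors) in KI 2, KI 3, KO 1, KO 2 and KI_WT 1, and below 1 CPM in the other 7. Y-linked genes had a mean log2 level relative to all libraries of -6.71 to -5.72 in those 5 libraries and 4.30 to 4.69 in the other 7. By these transcripts the 5 Xist-high libraries were from females and the other 7 from males. So 4 of 6 mutants but 1 of 6 wild types had the Xist-high pattern. The comparison was thus unbalanced for sex, and the model as reported has no term for it. With a term for Y-linked genes in the model 772 genes were at an unadjusted p under 0.05 (474 higher, 298 lower), and 0 passed the adjusted threshold. The choroid plexus transcript Ttr was below 10 CPM in KI_WT 3, KO_WT 1 and KO_WT 3, whereas the other 9 libraries had 513 to 1781 CPM. Levels declined with gene length most in KO 1 (-0.093 log2 units per doubling), KI 2 (-0.035) and KI_WT 2 (-0.031). The parts that sex, dissection and this length trend play in the gene lists below were not tested.

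Grin1 itself was at 309 ± 26.2 CPM in the mutants and 326 ± 22.3 in the wild types (SD, n = 6 each). By library it was 334, 294 and 305 CPM in KI and 333, 299 and 327 in KI_WT. In the knockout line it was 269, 340 and 313 CPM in KO and 362.5, 329 and 308 in KO_WT. The groups overlapped, and the log2 fold change of mutants over wild types was -0.077 (SE 0.069, 95% interval -0.23 to 0.072; edgeR adjusted p = 0.726). The interval leaves room for a reduction of up to 0.23 log2 units and little for an increase. With the length trend removed the log2 fold change of Grin1 was -0.0091. An antisense transcript, Grin1os, overlaps Grin1, and reads of the pair cannot be told apart without strand.

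Gbx2, a homeobox transcription factor of thalamic and hindbrain boundary development, had the smallest p of all genes. Its level was 2.12, 2.23 and 1.17 CPM in KI and 0.520, 1.55 and 2.73 in KO. In wild types it was 0.259, 0.0917 and 0.358 CPM in KI_WT and 0.126, 0.631 and 0.331 in KO_WT. Of the mutants 5 lay above every wild type and KO 1 lay below KO_WT 2. The log2 fold change was 2.51 (SE 0.45), with 2.94 in the knock-in line and 2.12 in the knockout line. A two-sided exact permutation of genotypes within lines gave p = 0.01, where 400 arrangements allow no less than 0.005. Any gene whose mutants and wild types do not overlap reaches 0.005 by construction. For such genes below, that p adds nothing to the non-overlap.

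D130058E05Rik, a noncoding transcript on the opposite strand that overlaps Gbx2, had a similar pattern (log2 fold change 2.08, SE 0.39). Its mutants were at 0.467 to 1.46 CPM and its wild types at 0.0903 to 0.451, without overlap (exact permutation p = 0.005). Strand use in the counting was not given in the sources used here, so reads of this pair cannot be told apart. B230323A14Rik, an antisense transcript that overlaps Foxb1, was at 0.234 to 0.456 CPM in mutants and 0.0315 to 0.214 in wild types (log2 fold change 1.62, SE 0.34), with the same limit. All 3 were low-abundance transcripts.

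Slc17a6 encodes VGLUT2, the vesicular glutamate transporter that predominates in subcortical glutamatergic neurons. It was at 93.1, 72.5 and 67.6 CPM in KI and 46.5, 55.8 and 53.8 in KI_WT. In the knockout line it was at 61.8, 79.1 and 103 CPM in KO and 36.0, 56.4 and 41.8 in KO_WT. Every mutant lay above every wild type, and the log2 fold change was 0.72 (SE 0.14; exact permutation p = 0.005). With a term for the thalamus marker list, of which Slc17a6 is a member, it was 0.31, a reduction fixed in part by that membership.

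Slc7a3, a cationic amino acid transporter that carries arginine, had a smaller and tighter difference. It was at 14.5, 13.8 and 12.2 CPM in KI and 13.7, 13.3 and 13.4 in KO. Wild types were at 9.57, 12.01 and 9.83 CPM in KI_WT and 10.9, 10.3 and 10.6 in KO_WT. The groups did not overlap, and the log2 fold changes of the lines were almost equal, 0.36 for KI and 0.35 for KO (0.36 in all, SE 0.072). Over all 32 alternatives this value stayed between 0.31 and 0.41. DESeq2 called it, with an adjusted p of 0.0228.

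**Figure D1:**
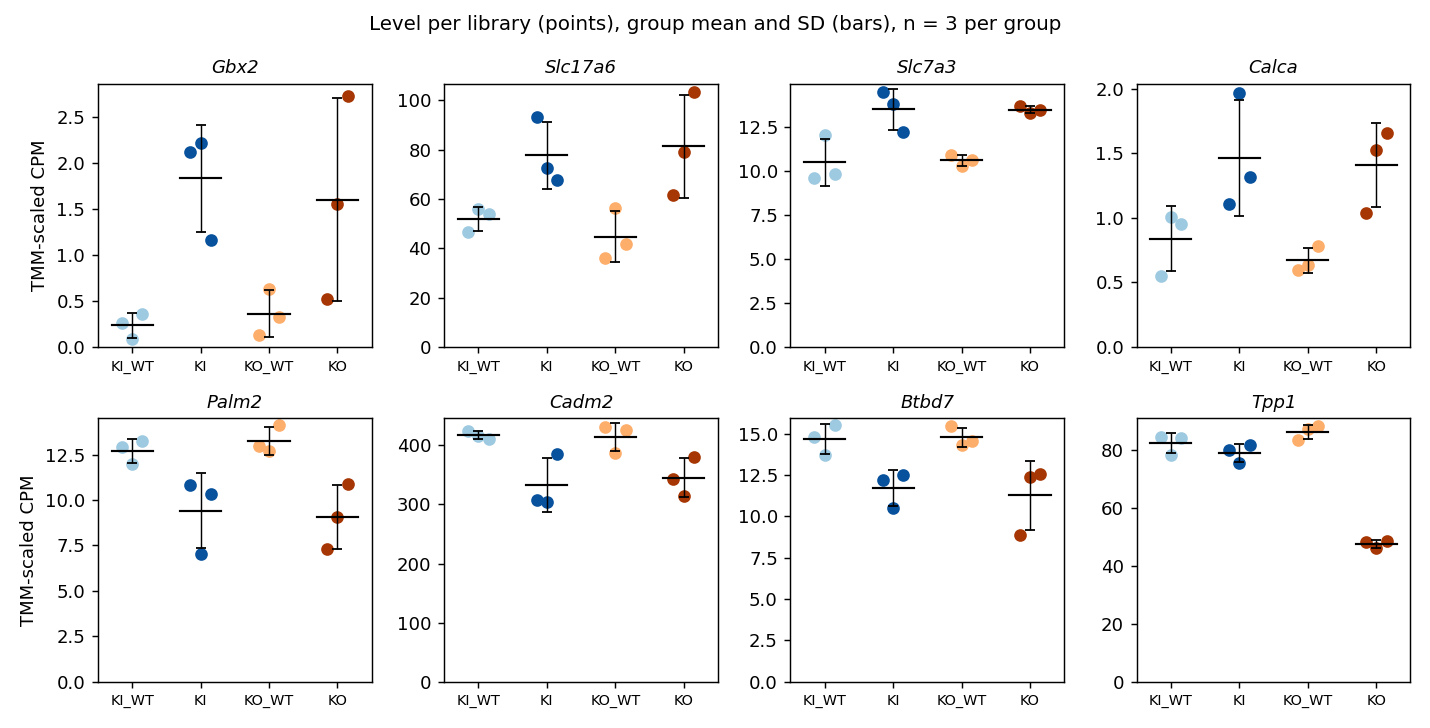
TMM-scaled CPM (vertical axes, from 0) of 8 genes in each library of the 4 groups, with 1 point per library, a horizontal bar at the group mean and an error bar of 1 SD (n = 3). Gbx2, Slc17a6, Slc7a3 and Calca stand higher in both mutant groups, Palm2, Cadm2 and Btbd7 lower in both, and Tpp1 is lower in KO alone, at 46.1 to 48.6 CPM.

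The other genes of smallest p on the higher side were a mixed group. Slitrk6, a neuronal transmembrane protein that guides neurite growth, was at 3.73 to 10.2 CPM in mutants and 1.26 to 4.72 in wild types (log2 fold change 1.37, SE 0.29). Calca, which encodes calcitonin and the neuropeptide CGRP, was at 1.04 to 1.97 CPM in mutants and 0.550 to 1.01 in wild types, without overlap (0.93, SE 0.21). Mlf1, a nucleocytoplasmic adaptor protein, was at 1.90 to 3.09 CPM against 1.31 to 1.89, also without overlap (0.66, SE 0.15). Pcbd1, which recycles the tetrahydrobiopterin cofactor of aromatic amino acid hydroxylases, had a log2 fold change of 0.72 (SE 0.16). Cpne2, a calcium-dependent phospholipid-binding protein, and Tpd52l1, a coiled-coil protein, were at 0.29 (SE 0.067) and 0.25 (SE 0.057). In these last 3 genes 4 or 5 of the 6 mutants lay above all wild types.

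Pmch, the precursor of melanin-concentrating hormone made in the lateral hypothalamus, had the largest log2 fold change of these 12 genes and the largest SE. It was at 44.5, 28.1 and 0.701 CPM in KI and 69.5, 8.49 and 0.497 in KO, while wild types had 0.120 to 1.77 CPM. The difference therefore rests on KI 1, KI 2, KO 1 and KO 2, while KI 3 and KO 3 lay within the wild-type range. The log2 fold change was 4.62 (SE 1.06), and the exact permutation p was 0.065.

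On the lower side Cadm2, a synaptic cell adhesion molecule, was at 307, 305 and 385 CPM in KI and 342, 313 and 380 in KO. Wild types were at 424, 415 and 411 CPM in KI_WT and 431, 387 and 425 in KO_WT. No mutant reached the lowest wild type, and the log2 fold change was -0.29 (SE 0.071; exact permutation p = 0.005). Luzp2, a leucine zipper protein, had a log2 fold change of -0.47 (SE 0.11), with 66.0 to 103 CPM in mutants and 94.0 to 122 in wild types, where KO 3 alone overlapped. Palm2, a paralemmin of neuronal membranes, was at 7.05 to 10.9 CPM in mutants and 11.98 to 14.1 in wild types (-0.49, SE 0.11). Palm2 overlaps the gene Pakap on the same strand, so reads may have been divided between them. The same limit holds for other genes of smallest p with a same-strand neighbour, among them Luzp2, Cadm2, Slc17a6, Tpd52l1, Btbd7 and Kat6a. Others, such as Pmch, Tlk1 and Kmt2e, overlap a gene on the opposite strand, and strand use in the counting was not given.

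The other genes of smallest p on the lower side had varied roles. Kat6a, a histone acetyltransferase, was at 52.2 to 75.4 CPM in mutants and 74.0 to 84.2 in wild types (log2 fold change -0.33, SE 0.081). Kmt2e, a member of the lysine methyltransferase family that reads histone marks, was at 76.8 to 102 CPM against 104 to 115 (-0.29, SE 0.074). Without KI 2 and KO 1 the Kmt2e value was -0.19. Tlk1, a kinase of chromatin assembly factors, was at -0.22 (SE 0.054). Bdp1, a subunit of the RNA polymerase III factor TFIIIB, was at -0.25 (SE 0.065), and Tfdp2, a dimerisation partner of E2F, at -0.19 (SE 0.048). The Tfdp2 value was -0.10 with the length trend removed. Arhgap5, a GTPase-activating protein, was at 133 to 184 CPM in mutants and 186 to 202 in wild types (-0.33, SE 0.082). Btbd7, a BTB-domain protein of epithelial branching, was at -0.36 (SE 0.089) and Itgb8, an integrin subunit that activates TGF-beta, at -0.25 (SE 0.064). Mutants and wild types did not overlap for Palm2, Cadm2, Tlk1, Tfdp2, Btbd7, Arhgap5 and Kmt2e among the 12.

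Xlr4a, of an X-linked lymphocyte-regulated family with near-identical copies, was at 0.0285 to 0.304 CPM in mutants and 0.0646 to 1.29 in wild types (log2 fold change -2.38, SE 0.50). Reads of the copies could be split between family members, so the value is uncertain. It was -1.38 on log2 of RPKM + 0.1.

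Genes whose libraries separated most cleanly relative to the spread within groups were often of modest difference. Fam167a, a gene of little-known function, was at 3.24 to 3.54 CPM in mutants and 1.86 to 2.94 in wild types (log2 fold change 0.44, SE 0.11). Mrpl10, a protein of the mitochondrial ribosome, was at 42.6 to 45.0 CPM against 36.9 to 41.9 (0.12, SE 0.045). Coa3, an assembly factor of cytochrome c oxidase, was at 42.9 to 50.9 CPM against 37.8 to 41.7 (0.18, SE 0.054). Chmp4b, an ESCRT-III component of membrane scission, and Tbc1d7, a subunit of the TSC complex that restrains mTORC1, both had a log2 fold change of 0.12. On the lower side Hinfp, a histone gene transcription factor, was at 6.03 to 7.16 CPM in mutants and 7.67 to 9.53 in wild types (-0.29, SE 0.079). Arid2, a subunit of the PBAF chromatin remodelling complex, was at 43.0 to 47.6 CPM against 48.8 to 56.0 (-0.17, SE 0.054).

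The within-line contrasts share no library, so they can be set beside each other. In KI against KI_WT 1214 genes were at an unadjusted p under 0.05 (6.96%), and in KO against KO_WT 1260 genes (7.22%). Both lists held 99 genes. Unrelated lists of these sizes would also share genes, so that count alone shows no agreement between the lines. Of the 99 genes, 71 had the same sign in both lines (5.85% of the first list and 5.64% of the second). Of those, 48 were higher and 23 lower, and the remaining 28 of the 99 had opposite signs. Over all genes 55.7% had the same sign in both lines, and Pearson's r of the log2 fold changes across genes was 0.12 (Spearman's rho 0.14). Above a mean log2 CPM of 2, r was 0.24 and rho 0.20 over 12192 genes. Genes are not independent replicates, and these values describe how alike the differences between mutants and wild types were in the lines. The Xist, Ttr and gene-length patterns also moved with mutant status, and their part in these values was not tested.

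**Figure D2:**
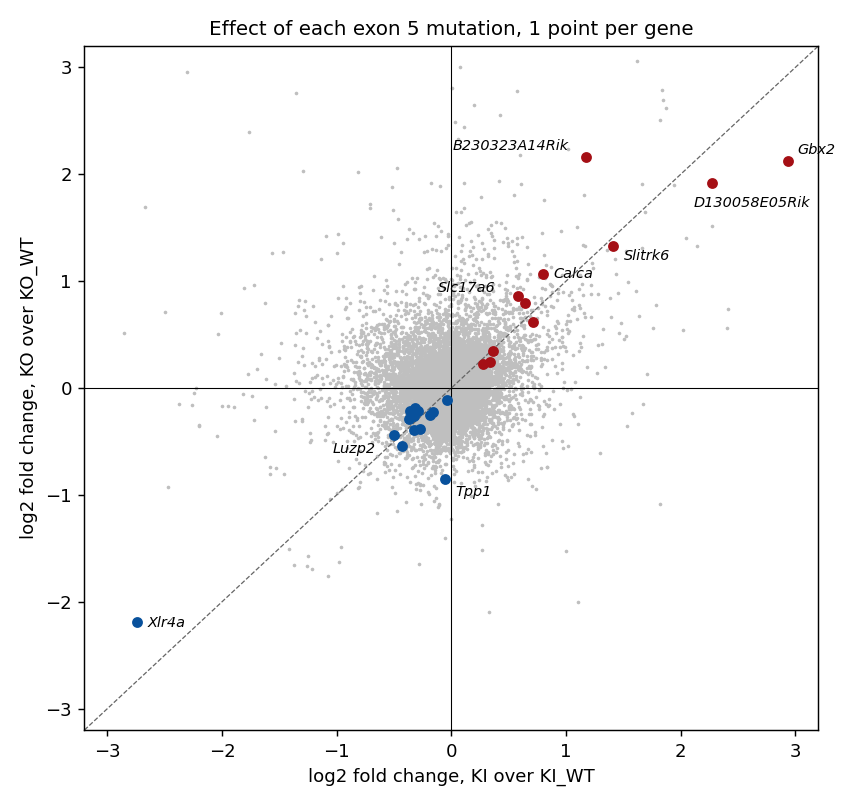
Log2 fold change of KI over KI_WT (horizontal) and of KO over KO_WT (vertical) for each gene, with the genes of smallest p and Grin1 and Tpp1 as red (higher in mutants) and blue (lower) points and a dashed line at equal effects; 12 genes lie beyond the axes. Most named genes lie near the dashed line, which their choice by the smallest p of 1 shared effect favours, while Tpp1 lies at -0.057 for KI and -0.86 for KO.

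One gene differed in its effect between the lines. Tpp1 encodes tripeptidyl peptidase 1, a lysosomal protease. It was at 48.3, 46.1 and 48.6 CPM in KO and 83.4, 87.2 and 88.2 in KO_WT, without overlap. In the knock-in line it was at 80.02, 75.6 and 81.6 CPM in KI and 84.4, 78.3 and 84.1 in KI_WT, with overlap. The KO effect minus the KI effect was -0.80 (SE 0.087; edgeR adjusted p = 0.0155 for the interaction), the 1 call among 17441 genes (0.00573%). The average of the within-line effects also called Tpp1 alone (0.00573% of genes), at -0.46 with an adjusted p of 0.00368. That call averages unequal effects and is no sign of a difference in both lines. In the additive model the pooled log2 fold change was -0.45 (SE 0.12; edgeR adjusted p = 0.535).

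Among the other NMDA receptor subunits, none of the tested genes was called. Grin3a, a subunit that lowers calcium permeability, was at 46.5 to 62.6 CPM in mutants and 39.6 to 48.1 in wild types (log2 fold change 0.19, SE 0.074). Grin2d had a log2 fold change of 0.22 (SE 0.10). Grin2a, which becomes prominent in mature cortex, was at -0.54 (SE 0.31), with -0.15 in the knock-in and -0.92 in the knockout line. Grin2b, prominent early in development, was at -0.20 (SE 0.17). The list as a whole had 2 of 6 tested members higher, with a median of -0.094. Its mean level relative to all libraries was -0.58 in KO 1, against 0.036 in KO 2 and 0.066 in KO 3. The knock-in mutants and the wild types were at -0.14 to 0.19, so the low level in the knockout line rested on KO 1. AMPA receptor subunits and auxiliaries, which carry fast excitatory transmission, were lower for 9 of 13 members (median -0.044), and Gria3 had the smallest p (-0.20, SE 0.076). On the RPKM scale 9 of these 13 were higher (median 0.018), where the median of all genes was 0.046.

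Scaffold and signalling genes of the postsynaptic density, the protein mesh that anchors NMDA receptors, were mostly lower in mutants. Of 29 members 26 were lower, 9 of them at an unadjusted p under 0.05 and 0 higher at that p, with 0 called. Over all genes tested 4.5% were lower and 4.61% higher at that p, the shares to set beside the counts of this and later lists. The median log2 fold change was -0.14 (-0.091 in KI and -0.20 in KO), against -0.0038 over all genes. In both lines 20 members were lower, as were 4797 of all 17441 genes tested. Dlg2, which encodes the scaffold PSD-93, was at 281, 264 and 362 CPM in KI and 389, 352 and 352 in KI_WT. In the knockout line Dlg2 was at 204, 260 and 329 CPM in KO and 433, 382 and 365 in KO_WT. KI 3 alone overlapped the wild types, and the log2 fold change was -0.42 (SE 0.12). Dlgap2 (-0.34, SE 0.11), Homer2 (-0.31, SE 0.10) and Nlgn1 (-0.14, SE 0.045), which encode a scaffold partner, an mGluR linker and a postsynaptic adhesion molecule, were lower in both lines.

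The mean level of the list by library was lowest in KO 1 (-0.29 log2 units relative to all libraries) and KI 2 (-0.15). Without those 2 libraries the median log2 fold change was -0.090 and 23 of 29 members were lower. Members of this list are long, with a median of 6824 bp against 3453 over all genes. With the length trend removed the median was -0.11. On the RPKM scale it was -0.091, with 8 members higher, where the median of all genes was 0.046.

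Voltage-gated channel genes, which shape firing and calcium entry, had a similar pattern with a median of -0.14. Of 28 members 22 were lower, 6 at an unadjusted p under 0.05. Cacna1i, a T-type calcium channel, was at 72.3 to 92.0 CPM in mutants and 86.0 to 114 in wild types (log2 fold change -0.28, SE 0.082). Scn1a, a sodium channel of fast-spiking interneurons, was at -0.23 (SE 0.10). The median went from -0.14 to -0.036 without KI 2 and KO 1, and to -0.061 with the length trend removed. The list has a median length of 9250 bp.

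GABA synapse genes, which carry inhibition, were lower for 18 of 21 members (median -0.10; 3 at an unadjusted p under 0.05), and 12 of the 21 had the same sign in both lines. Their median was -0.035 without the 3 libraries of low Ttr, with 13 of 21 lower, and -0.063 with the length trend removed. Presynaptic vesicle release genes were lower for 18 of 24 (median -0.062). On the RPKM scale, where the median of all genes was 0.046, 12 of 24 were lower. Within that list Syp, the vesicle protein synaptophysin, stood on the other side. Its mutants were at 1052 to 1232 CPM and its wild types at 960 to 1050, so the groups did not overlap by a margin of 2 CPM (log2 fold change 0.14, SE 0.056). Syt1, the calcium sensor of release, was at -0.15 (SE 0.069).

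Proteasome genes, which encode the complex that degrades ubiquitinated proteins, were higher for 31 of 31 members, 7 at an unadjusted p under 0.05 and 0 called. Their median log2 fold change was small, 0.091, and came mostly from the knockout line (0.175 in KO and 0.013 in KI, where 20 of 31 were higher). Psmb5, the catalytic subunit with chymotrypsin-like activity, was at 72.8, 72.9 and 66.0 CPM in KI and 58.4, 58.0 and 64.3 in KI_WT. In the knockout line Psmb5 was at 73.4, 66.9 and 62.5 CPM in KO and 59.7, 62.3 and 61.3 in KO_WT. KO 3 alone overlapped, and the log2 fold change was 0.19 (SE 0.054; exact permutation p = 0.005). The list's median was 0.063 without KI 2 and KO 1, with all 31 still higher, and 0.074 with the length trend removed, with 28 higher.

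Nuclear genes of the respiratory chain were higher for 30 of 35 members, 5 at an unadjusted p under 0.05 (median 0.081; 0.040 in KI, where 22 were higher, and 0.15 in KO, where all 35 were). The median was 0.038 without KI 2 and KO 1, 0.049 with the length trend removed and 0.17 with the thalamus term. Atp5g3, a subunit of the ATP synthase ring, had the smallest p (0.20, SE 0.076). Cytosolic ribosomal protein genes were higher for 66 of 77 (median 0.057), with -0.023 in the knock-in and 0.14 in the knockout line. Without KI 2 and KO 1 that list was higher for 37 of 77, with a median of -0.0040. It was higher for 45 (median 0.0067) with the length trend removed, for 75 (0.12) with region terms in the model (mean levels of thalamus, choroid plexus and olfactory bulb markers) and for all 77 (0.20) with the thalamus term. Rpl41 had the smallest p of the list (0.28, SE 0.086). Mitochondrially encoded genes ran the other way, lower for 9 of 13 (median -0.22), 6 of them at an unadjusted p under 0.05. The lines differed there, with a median of -0.55 in KI and 0.10 in KO, a difference that was not tested for the list. With the thalamus term the median of the list was 0.0030. mt-Nd5, a complex I subunit, was at 4543, 3278 and 5628 CPM in KI against 8180, 9083 and 5411 in KI_WT. In the knockout line mt-Nd5 was at 6203, 6963 and 7864 CPM in KO and 8459, 7110 and 7753 in KO_WT, with overlap.

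Endoplasmic reticulum chaperone genes, which fold secreted and membrane proteins, were higher for 18 of 19 members (median 0.12; 0.19 in KI and 0.021 in KO). Creld2, an ER stress-inducible protein, was at 12.4 to 16.6 CPM in mutants and 9.80 to 13.6 in wild types (log2 fold change 0.34, SE 0.10), and at 0.093 with the region terms. With those terms the list's median was -0.0022. Cytosolic heat shock genes were higher for 16 of 20 (median 0.076), with -0.081 under the region terms. Hspb1, a small heat shock protein, had the smallest p (0.61, SE 0.26).

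Immediate early genes, which report recent neuronal activity, were higher for 14 of 22 members (median 0.035), with -0.010 without KI 2 and KO 1 and -0.10 under the region terms. The median library had a lower mean level of this list in mutants (-0.043) than in wild types (0.036), against the sign of the median member. Jun, a subunit of AP-1, had the smallest p (0.29, SE 0.10). Circadian clock genes were lower for 16 of 18 (median -0.067), with Clock at -0.28 (SE 0.10), and 6 of the 18 had the same sign in both lines. Glucocorticoid response genes were lower for 15 of 19 (median -0.065), with Klf9 at -0.25 (SE 0.10). Without KI 3 and KO 2 that list was higher for 12 of 19 (median 0.062), and with a term for the range of animal numbers in the labels for 11 of 19 (0.00085). Cholesterol synthesis genes were divided, 12 higher and 10 lower (median 0.012), with Sc5d at -0.18 (SE 0.062) and list medians of -0.079 in KI and 0.073 in KO. Lysosome genes were also divided, 25 higher and 19 lower (median 0.0091), with Tpp1 the member of smallest p. Genes within 1 Mb of Grin1 were higher for 35 of 58 tested members (median 0.030), and Ssna1 had the smallest p (0.19, SE 0.064).

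**Figure D3:**
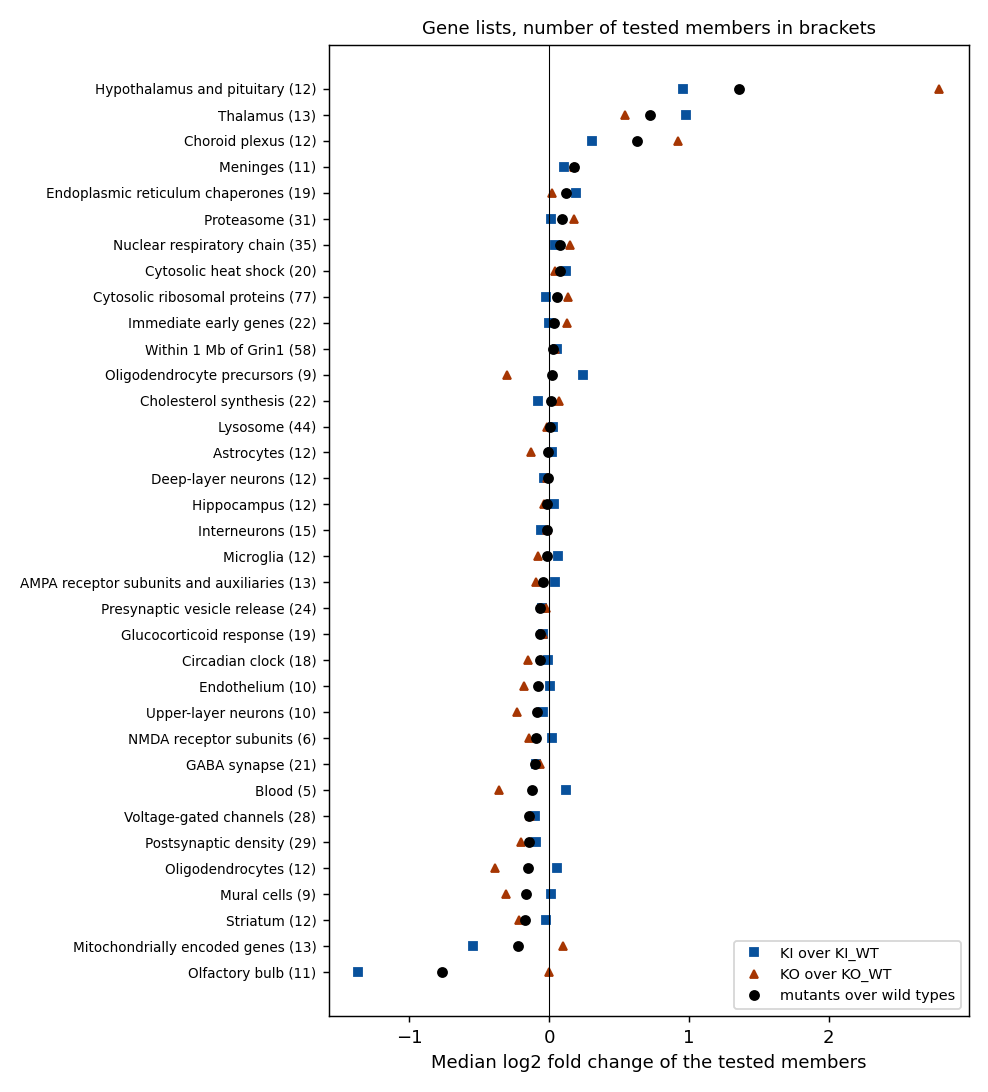
Median log2 fold change of the tested members of each gene list (horizontal axis), for mutants over wild types (circles), KI over KI_WT (squares) and KO over KO_WT (triangles), with the number of members tested in brackets; the Y-linked list is left out. Markers of hypothalamus, thalamus and choroid plexus stand highest, at 1.36, 0.72 and 0.63, and olfactory bulb lowest at -0.76, while pathway medians lie between -0.22 and 0.12.

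Markers of thalamus, hypothalamus, choroid plexus and olfactory bulb had larger median differences than any pathway list. Thalamus markers were higher in mutants for 13 of 13 genes, 9 at an unadjusted p under 0.05 and 0 called, with a median log2 fold change of 0.72 (0.98 in KI and 0.54 in KO). The mean level of the list relative to all libraries was 0.86, 0.47 and 0.47 in KI and -0.42, -0.69 and -0.49 in KI_WT. In the knockout line it was -0.36, 0.31 and 0.97 in KO and -0.95, 0.35 and -0.54 in KO_WT. The list thus separated the knock-in groups, while KO_WT 2 stood with the mutants and KO 1 with the wild types. Gbx2 and Slc17a6, the leading genes of the whole comparison, belong to this list. With a term for the list in the model the log2 fold change of Gbx2 was 1.02, which its membership fixes in part. Slitrk6, which is not a member, was at 0.40.

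Hypothalamus and pituitary markers were higher for 10 of 12 tested members, with a median of 1.36. Their mean level was 1.65, 1.17 and -1.21 in KI and 3.39, 1.13 and -1.89 in KO, and -1.61 to 0.22 in the wild types. Hcrt, the hypothalamic neuropeptide orexin, was at 3.88, 3.48 and 0.0292 CPM in KI and 20.6, 1.59 and 0.111 in KO. Wild types had 0.0301 to 0.581 CPM, so the same 4 mutants stood high for Hcrt as for Pmch. Choroid plexus markers were higher for 12 of 12 genes (median 0.63), with 0 at an unadjusted p under 0.05. Without the 3 libraries of low Ttr, all of them wild types, that median was -0.13. Clic6, a chloride channel protein, had the smallest p of the list (0.66, SE 0.37).

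**Figure D4:**
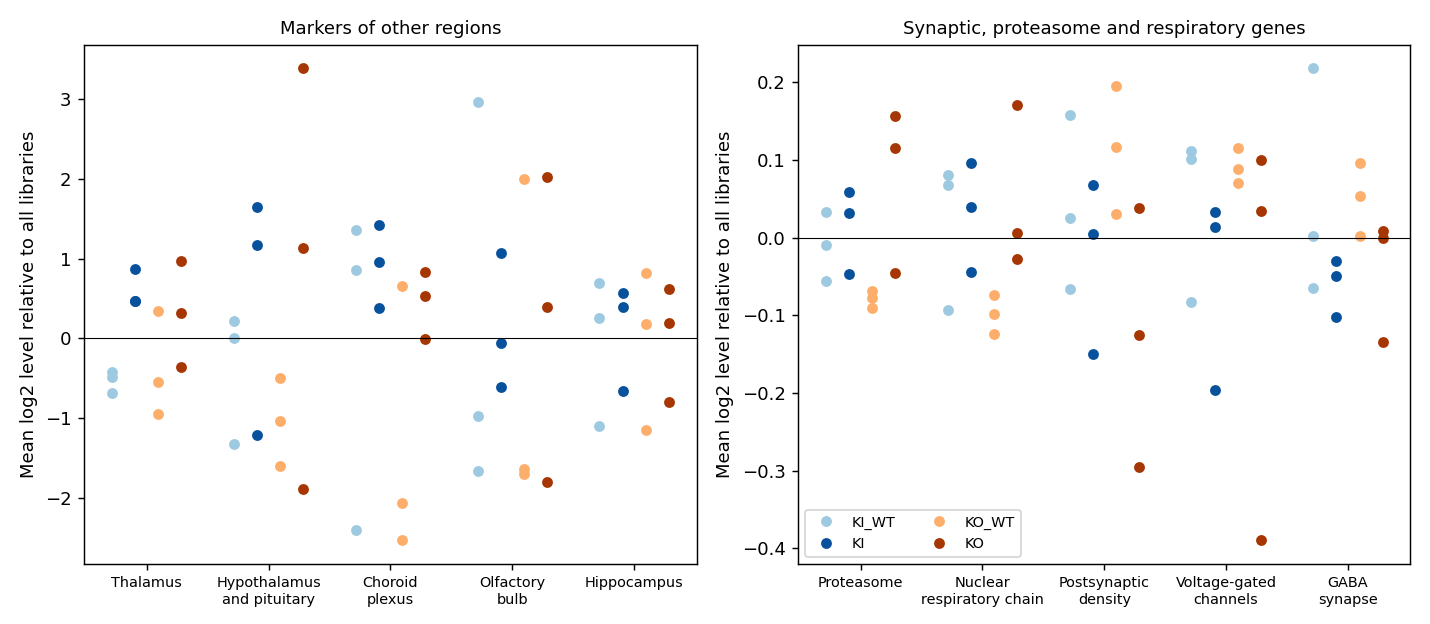
Mean log2 level of list members in each library relative to the mean of all 12 libraries (vertical axes, 1 point per library, n = 3 per group), for markers of other regions (left) and for synaptic, proteasome and respiratory genes (right). The left axis spans several log2 units, with KO 1 at 3.39 for hypothalamus and pituitary and the 3 lowest choroid plexus points all wild types; the right axis spans less than 1, with KO 1 lowest for postsynaptic density at -0.29.

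Olfactory bulb markers were lower for 9 of 11 genes (median -0.76) with wide spread, since KI_WT 3 (2.97), KO 1 (2.02) and KO_WT 3 (1.99) stood high. Sp8, a transcription factor of bulb interneurons, had the smallest p (-0.84, SE 0.74), and its value was 0.23 without KI_WT 3. On the RPKM scale the bulb median was 0.19. Without the 3 libraries of low Ttr it was 2.10 and with the thalamus term 1.16, with 10 of 11 markers higher in each case. The median library had a mean level of 0.17 in mutants and -1.31 in wild types, the opposite order to the median member. Striatum markers were lower for 9 of 12 (median -0.17), although Six3, the member of smallest p, was at 0.60 (SE 0.24). The striatum list turned to higher with the region terms (median 0.18, 10 of 12), without the 3 libraries of low Ttr (0.23, 12 of 12), with the thalamus term (0.35, 11 of 12) and without KI 3 and KO 2 (0.019, 7 of 12). Hippocampus markers were divided 6 and 6 (median -0.013), with Cpne7 at 0.57 (SE 0.20). The hippocampus median was -0.67 with the region terms and -0.69 with the thalamus term (11 of 12 lower in each), -0.42 without the 3 libraries of low Ttr, and 0.22 without KI 2 and KO 1.

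No cell type marker of cortex was called. Upper-layer neurons had a median of -0.087 (8 of 10 lower; Cux1 -0.21, SE 0.082), deep-layer neurons -0.0080 (7 of 12 lower; Sulf1 0.32, SE 0.19) and interneurons -0.014 (9 of 15 lower; Vip -0.21, SE 0.084). With the region terms upper-layer markers were higher for 8 of 10 (median 0.10). Astrocyte markers were lower for 7 of 12 (median -0.0079). Slc1a3, the glutamate transporter GLAST, was at 538 to 800 CPM in mutants and 808 to 967 in wild types, without overlap (-0.22, SE 0.095). Its log2 fold change was -0.089 in KI and -0.35 in KO. KO 2 was at 538 CPM, while the other mutants were at 751 to 800. Oligodendrocyte markers were lower for 12 of 12 (median -0.15), with 0.054 in KI and -0.39 in KO, and Mobp at -0.29 (SE 0.19) had the smallest p. Their precursors were higher for 5 of 9 (median 0.019), but the lines lay on opposite sides, with a median of 0.24 in KI (8 of 9 higher) and -0.30 in KO (0 of 9). Vcan, a proteoglycan, was at -0.31 (SE 0.084). Microglia markers were divided 6 and 6 (median -0.017; P2ry12 -0.31, SE 0.12), with 0.066 in KI and -0.077 in KO. The medians of deep-layer, interneuron, astrocyte and microglia markers were all within 0.02 of 0. On the RPKM scale they were 0.053, 0.032, 0.037 and 0.036, where the median of all genes was 0.046.

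Endothelial markers were lower for 10 of 10 (median -0.081), 3 at an unadjusted p under 0.05. The direction was that of the knockout line (median -0.18, 10 of 10 lower), since in KI the median was 0.0088 with 5 of 10 lower. Abcb1a, the P-glycoprotein of the blood-brain barrier, was at 42.0 to 64.0 CPM in mutants and 65.3 to 75.5 in wild types, without overlap (-0.29, SE 0.089). Mural cell markers were lower for 6 of 9 (median -0.16; Pdgfrb -0.20, SE 0.10), with 0.012 in KI and -0.31 in KO. Meningeal markers were higher for 10 of 11 (median 0.18; Dcn 0.39, SE 0.17), and for 5 of 11 without KI 2 and KO 1. Blood markers were lower for 4 of 5 tested (median -0.12; Hba-a1 -0.28, SE 0.14), with 0.12 in KI and -0.36 in KO. The Y-linked genes were lower for 4 of 4 (median -1.46; Uty -1.52, SE 1.21), and lowest in the 5 Xist-high libraries. In whole tissue, fewer cells of a type and less RNA per cell cannot be told apart.

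Gene length and direction went together over the whole table. Among the shortest quintile of genes (up to 1769 bp) 7.25% were higher in mutants at an unadjusted p under 0.05 and 1.72% lower. Among the longest quintile (from 6065 bp) 1.78% were higher and 11.5% lower. The median log2 fold change ran from 0.047 in the shortest quintile to -0.067 in the longest, and from 0.11 to -0.084 in the knockout line. By library the longest quintile was lowest in KO 1 (-0.13), KI 2 (-0.066) and KI_WT 2 (-0.041), and positive in the other 5 wild types. Length was the one the authors' RPKM values imply. After removing a length trend from each library, 1335 genes were at an unadjusted p under 0.05, 737 higher and 598 lower, and 0 passed the adjusted threshold.

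**Figure D5:**
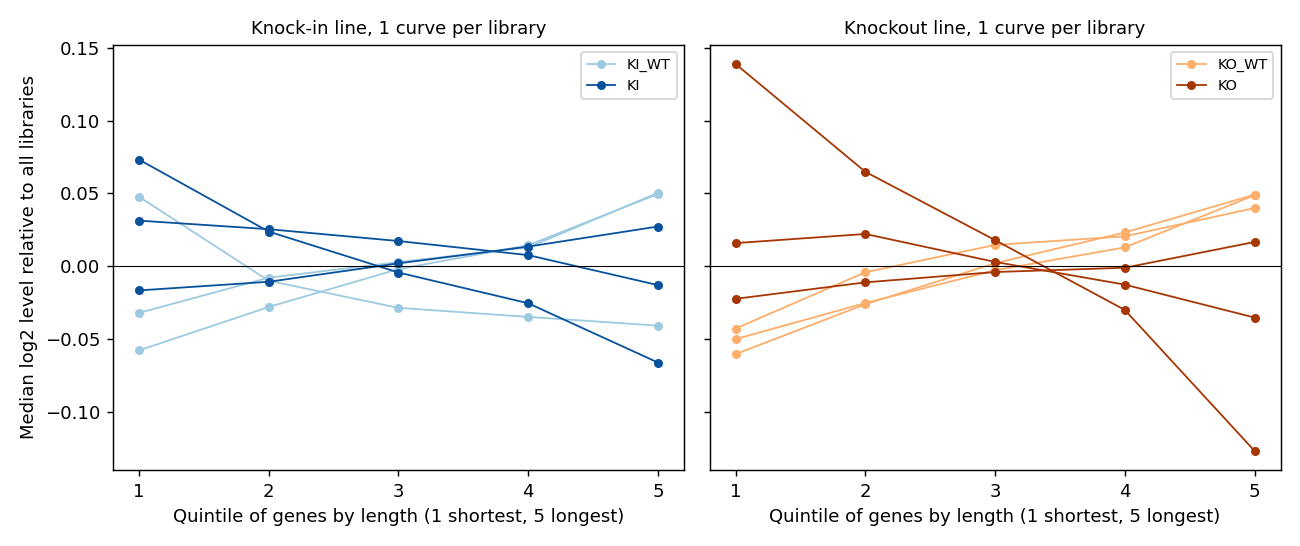
Median log2 level relative to all libraries (vertical axis) over quintiles of genes by length (horizontal axis, 1 shortest to 5 longest), with 1 curve per library, for the knock-in line (left) and the knockout line (right). KO 1 falls from 0.14 to -0.13, KI 2 falls from 0.073 to -0.066, and the 3 KO_WT curves rise from at most -0.043 to at least 0.040.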

How the data were processed

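The authors deposited a table of whole-number read counts for 41388 Ensembl genes and a table of RPKM values for the same genes and 12 libraries. Reads were processed with bcl2fastq 2.17, STAR 2.5.0c and Cufflinks 2.2.1 on GRCm38, per the submitters' processing notes; the counter, its annotation and strand setting are not given in the sources used here. RNA integrity numbers and separate RNA preparations per mouse are stated per the labels' protocols.

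Counts were fitted with edgeR 4.0.16 in R 4.3.3 (filterByExpr with 4 groups, TMM, quasi-likelihood, 9 residual degrees of freedom), with mutant status and line as terms; a fit with 1 mean per group gave the within-line contrasts. The biological coefficient of variation was 15.6%. Exact permutations used log2(CPM + 0.5). Fits were tested on counts simulated from the fitted means and spread. The simulation held no differences of sex, dissection or length trend between libraries, so it does not bear on those. Between replicate libraries the variance of counts was 13.6 to 73.9 times that of sampling, so none was counted as a copy. Of the gene IDs 40340 matched GENCODE M21, and 641 of 642 list entries matched a gene.

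Named genes were Grin1, Tpp1, the 12 of smallest p in each direction, 5 in each direction of the clearest non-overlap, and the member of smallest p in each of 36 lists. Xist, Ttr, Hcrt, list members beyond the first, and the interferon-stimulated list were chosen after their values were seen. The members and lists were chosen with earlier results of these data known. Lists are described without a test. Some genes that this rule names are not reported here. Alternatives were other scalings, filters, tools (DESeq2 1.42.0, limma 3.58.1), RPKM scales, covariates and left-out libraries.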

Additional observations from a re-analysis of the deposited data

Results flagged for a closer look

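Of 126 groups of 6 values examined, 7 held a library far from the other 5; chance alone flags about 1 in 20 groups. D130058E05Rik was highest among wild types in KO_WT 2, at 0.451 CPM against 0.194 in the next library. KI_WT 2 stood apart in 3 lists among the wild types. Its mean log2 level relative to all libraries was -0.083 for voltage-gated channels, 0.23 for cytosolic ribosomal proteins and -0.12 for circadian clock genes. The nearest wild types were at 0.071, -0.012 and 0.038. Cholesterol synthesis genes were highest among mutants in KO 1, at 0.10 against 0.0018. Astrocyte markers were lowest among wild types in KI_WT 3, at -0.17 against 0.021. Y-linked genes were lowest among wild types in KI_WT 1, at -6.68 against 4.33, the 1 Xist-high wild type.

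The effect of the mutation on Tpp1 differed between the lines by -0.80 log2 units (KO minus KI; SE 0.087; edgeR adjusted p = 0.0155 for the interaction), with all 3 KO libraries below all 3 KO_WT libraries and the knock-in groups overlapping.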

How the results depend on the processing

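No paired analysis was possible because the labels give no shared replicate numbers. Across 32 alternatives the 24 genes of smallest p kept their direction in all 760 values. Their choice by smallest p in these same libraries largely fixed that outcome. By DESeq2 alone, 7 of those values passed an adjusted p of 0.05. The count of called genes was 0 except for 1 with the average of the within-line contrasts (Tpp1), 7 with DESeq2 (Gbx2, Slc17a6, D130058E05Rik, Slitrk6, Pmch, Slc7a3 and Xlr4a), 1 in the knock-in line alone (Abhd12b) and 1 in the knockout line alone (Tpp1); it was 0 with each library left out in turn. The count at an unadjusted p under 0.05, 1588 in the model as reported, was 772 with a term for Y-linked genes, 875 with the region terms (thalamus, choroid plexus and olfactory bulb), 966 without the libraries with Ttr under 50 CPM, 948 in the knockout line alone, 976 without KI 2 and KO 1, and 2509 on log2(RPKM + 0.1) with no filter (2043 higher, 466 lower). With the thalamus term it was 1917 (805 higher, 1112 lower). With single libraries left out it ranged from 985 (without KI 2) to 2107 (without KO 3). Genes without overlap numbered 69 as reported, 135 on CPM by library total and 133 on the deposited RPKM (126 above, 7 below). The direction of single genes turned for Cux1 (0.024), Vip (0.073), P2ry12 (0.063), Clic6 (-0.084) and Cpne7 (-0.28) with the region terms, for Sp8 (1.17) and Ttr (-0.096) without the low-Ttr libraries, for Sp8 (0.41) and Cpne7 (-0.024) with the thalamus term, and for Sp8 without KI_WT 3 (its leave-one-out range was -1.39 to 0.23). The cause of these changes was not tested. The length, thalamus and paired left-out alternatives and the other scales for overlap were chosen after seeing the data. With 3 animals per group and a biological coefficient of variation of 15.6%, a count of 0 does not show that the mutations had no effect.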

Other observations

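Genes induced by interferon, the antiviral and antigen presentation programme, were higher in mutants for 40 of 46 tested members of a list of 47 chosen after the values were seen. Of these 20 were higher and 0 lower at an unadjusted p under 0.05, against 4.61% higher and 4.5% lower over all genes tested. With 0 called, 34 members were higher in both lines, as were 4915 of all 17441 genes tested. The median log2 fold change was 0.28, with 0.27 in the knock-in line and 0.34 in the knockout line, against -0.0038 over all genes tested. Irf7, a transcription factor that amplifies interferon production, was at 1.84, 1.71 and 5.40 CPM in KI and 1.95, 4.10 and 2.65 in KO. Wild types were at 1.28 to 1.81 CPM, and 5 of 6 mutants lay above them (log2 fold change 0.94, SE 0.28; edgeR adjusted p = 0.535). Ifit3, an antiviral effector, was at 31.3 CPM in KI 3 and 21.7 in KO 2, against 10.6 to 13.0 in the other mutants and 8.31 to 12.2 in the wild types. Tap1, a peptide transporter of antigen presentation, was at 2.30 to 3.87 CPM in mutants and 2.04 to 2.51 in wild types (0.44, SE 0.13). Epsti1, an interferon-inducible gene, was at 1.17 to 1.62 CPM in mutants and 0.597 to 1.17 in wild types (0.65, SE 0.18).

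The list's level rested largely on a pair of libraries. Its mean log2 level relative to all libraries was 0.69 in KI 3 and 0.48 in KO 2, against -0.17 to 0.034 in the other 4 mutants and -0.22 to -0.051 in the wild types. Both libraries were Xist-high, and the other 3 Xist-high libraries, KI 2, KO 1 and KI_WT 1, were at -0.094, -0.020 and -0.19. Without KI 3 the median was 0.19 (34 of 46 higher), and without KO 2 it was 0.21 (40 of 46). Without both it was 0.061, with 29 of 46 higher. With a term for Y-linked genes it was 0.18 (37 of 46).

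Srr, which encodes serine racemase, the enzyme that makes the NMDA receptor co-agonist D-serine, was named after its values were seen. It was at 97.1, 78.7 and 106 CPM in KI and 81.9, 100 and 110.2 in KO. Wild types were at 122, 110.4 and 116 CPM in KI_WT and 119, 117 and 120 in KO_WT. Mutants and wild types did not overlap, by a gap of only 0.015 of the SD within groups. The log2 fold change was -0.29 (SE 0.080, edgeR adjusted p = 0.535). The exact permutation p of 0.005 follows from that narrow non-overlap.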
